A study of Mus musculus with 12 samples.

Results

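Heparan sulfate is a sulfated polysaccharide chain carried by proteoglycans of the cell surface and matrix, and 9 genes for enzymes that build it are described here across a time course of ERK activation in mouse embryonic stem cells. The genes are Ext1, Ext2, Extl3, Ndst1, Ndst2, Hs2st1, Hs6st1, Hs3st1 and Hs3st3b1, found by symbol in a deposited count table of 25897 symbols. They were selected on their function with the levels in these same libraries already known, so their changes are given as values with errors and without p-values. All 9 had enough counts to enter the fit across 14185 genes.

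The cells were E14tg2a embryonic stem cells, a line of the 129SV background, and every group carried a cRAF-ERT2 construct. In such a fusion the kinase RAF is joined to a hormone-binding domain, so that 4-hydroxytamoxifen (4OHT) activates it and the ERK pathway below it. Clones a, b and c were each sequenced untreated and after 1, 2 and 4 h in 250 nM 4OHT, giving 4 groups of 3 libraries. All groups had been grown with serum, LIF and 2 µM Chir99021. For the last 24 h before treatment all were kept with serum, LIF and 250 nM PD173074, an FGF receptor inhibitor, and 5 mM ethynyl uridine was added 15 min before RNA was taken. Each clone is 1 line sampled at 4 times, no solvent-only group is among these samples, and effects of 4OHT other than on the construct cannot be told apart from those of the construct.

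Synthesis begins on a linker of sugars attached to a core protein. EXTL3 adds the first chain sugar, and the EXT1 and EXT2 polymerase then lengthens the chain from alternating glucuronic acid and N-acetylglucosamine. NDST enzymes replace N-acetyl groups by N-sulfate, an epimerase turns some glucuronic acid into iduronic acid, and 2-O-, 6-O- and 3-O-sulfotransferases finish the pattern. Heparan sulfate is known in embryonic stem cells as a co-receptor of FGF signalling, which needs 2-O- and 6-O-sulfate, and the 3-O-sulfate group is the least common of these modifications.

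Total counts per library were 24213641 to 31435301. Levels are in CPM, counts scaled to library size with TMM factors, and a log2 change is from the edgeR fit of all 12 libraries, given ± SE. This fit has 1 term per group, so its SE does not use the pairing of libraries by clone. With a clone term the SE at 4 h was 0.105 against 0.150 for Hs6st1, and 0.239 against 0.325 for Hs3st3b1. The ERK target genes Dusp6, Spry4, Egr1 and Fos were higher at 1, 2 and 4 h and Etv4 at 2 and 4 h (edgeR adjusted p from 1.72e-05 to 0.0216). Clone a stood apart by a smaller response in part of these genes: Egr1 was at 32.6 CPM in clone a, 162 CPM in clone b and 90.1 CPM in clone c at 4 h, against 5.93 to 9.28 CPM untreated. Etv4 did not show this, with log2 changes at 4 h of 2.70, 2.63 and 2.57 in clones a, b and c. The 8 embryonic stem cell markers summed to 4307 to 4699 CPM untreated and 4287 to 4307 CPM at 4 h, but single markers moved: at 4 h Pou5f1 and Utf1 were called higher and Nanog and Tdgf1 lower. With the clone letter as a term of the fit (the replicate block) Zfp42 was also called higher and Dppa5a lower. Nanog went from 655, 717 and 725 CPM to 315, 243 and 289 CPM. The 6 primitive endoderm markers summed to 5.41 to 13.7 CPM and 4.21 to 11.9 CPM, with 0 called at 4 h, and Gata4 and Pdgfra called lower with the replicate block. Other cell types' markers moved with treatment: 6 trophoblast markers summed to 32.8 to 40.9 CPM untreated and 41.3 to 85.6 CPM at 4 h, with 3 of 5 tested (Cdx2, Eomes and Gata3) higher. Tfap2c, another of the 5, averaged 21.8 CPM untreated and 16.3 CPM at 4 h, not called, and called lower with the replicate block. The 6 feeder fibroblast markers summed to 3.39 to 4.26 and 11.6 to 26.6 CPM, with both tested members, Col1a1 and Thy1, higher. The rise of the sum was mostly Thy1, at a mean of 3.42 CPM untreated and 17.0 CPM at 4 h. Col1a1 was at 0.326 and 0.816 CPM. Col1a2, Col3a1, Postn and Lum were at most at 0.212 CPM in any library, and Postn was at 0 at 0, 1 and 2 h. Their part in the results below was not tested, and in bulk RNA a change in the share of cells and a change in RNA per cell cannot be told apart.

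The stretches upstream of the start sites of Hs3st3b1, the gene with the largest rise among the 9, and Hs6st1, the gene with the largest fall, are printed because the members' RNA levels moved in opposite directions. They are the 250 bases before the start site from RefSeq (GRCm38.p6), at chr11:63922285-63922534 on the minus strand and chr1:36068150-36068399 on the plus strand, with matches to the GC box GGGCGG on either strand in capitals.

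Hs3st3b1: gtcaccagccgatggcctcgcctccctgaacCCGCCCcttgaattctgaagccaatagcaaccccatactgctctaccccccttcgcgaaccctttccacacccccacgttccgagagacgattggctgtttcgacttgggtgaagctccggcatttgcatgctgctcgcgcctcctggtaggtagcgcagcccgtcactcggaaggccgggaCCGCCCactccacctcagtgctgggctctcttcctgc
Hs6st1: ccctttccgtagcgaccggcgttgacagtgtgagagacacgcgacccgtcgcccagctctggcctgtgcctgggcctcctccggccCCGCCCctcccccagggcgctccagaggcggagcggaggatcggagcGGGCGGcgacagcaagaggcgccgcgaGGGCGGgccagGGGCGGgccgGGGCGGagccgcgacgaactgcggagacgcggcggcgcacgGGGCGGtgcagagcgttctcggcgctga

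The Hs3st3b1 stretch held 2 GC boxes, 219 and 37 bases before the start, at a GC content of 62.4%, and the Hs6st1 stretch held 6 GC boxes, 28 to 164 bases before the start, at 76.4%. Of the 9 genes 6 had an entry, and Ext1, Extl3 and Ndst1 had none. The window of Hs3st1 (chr5:39644632-39644881, minus strand) held no GC box. It lies inside the gene span given below, because the RefSeq start site used is within that span. GC boxes were also found upstream of Hs2st1 (1) and Ndst2 (3), and an E-box, CACGTG, upstream of Ext2. A GC box was present in 32.7% and an E-box in 6.02% of the 32851 upstream stretches of this length in the RefSeq table. Other searched words, on both strands, were CCGGAA, a form of the ETS site (12% of all stretches), AP-1 TGANTCA (6.75%) and CRE TGACGTCA (1.55%). EGR GCGGGGGCG (2.57%), Capicua TGAATGAA (1.08%) and the CArG box (1.47%) were also searched. None of these words, as searched, occurred in the 6 windows, which says nothing about more distant sites or about the factors themselves. Of these words, EGR matches can overlap a GC box. Other forms of these sites were not searched for, and the shorter ETS core GGAA, on either strand, occurs in both printed stretches.

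Of the 9 genes, 0 were past an edgeR adjusted p of 0.05 at 1 h, and 0 had an unadjusted p under 0.05 or were called by DESeq2 or limma-voom. At that time 0.0775% of all genes tested were called higher and 0% lower, with 1630 genes at an unadjusted p under 0.05. At 2 h, 2 members were called higher (Hs3st3b1 and Ext1) and 2 lower (Hs6st1 and Ndst1), beside 9.56% of all genes higher and 6.64% lower. At 4 h the 2 higher genes were again Hs3st3b1 and Ext1, and 4 were lower (Hs6st1, Hs2st1, Ndst1 and Ndst2), beside 18.0% and 15.1% of all genes. With the clone letter as a replicate block, 0, 6 and 6 members were called at 1, 2 and 4 h, Hs2st1 and Ndst2 being added at 2 h. The fit with this block called, of all genes, 5.41% higher and 1.58% lower at 1 h, 20.6% and 20.0% at 2 h, and 26.2% and 25.7% at 4 h. The CPM of treated and untreated libraries did not overlap for 2, 5 and 6 members at 1, 2 and 4 h, against 19.9%, 37.4% and 44.7% of all genes. The median log2 change of the 9 was 0.03, 0.04 and −0.09, and that of all genes −0.02 at each time. The members were chosen with these values known, so nothing is read from these counts.

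**Figure D1:**
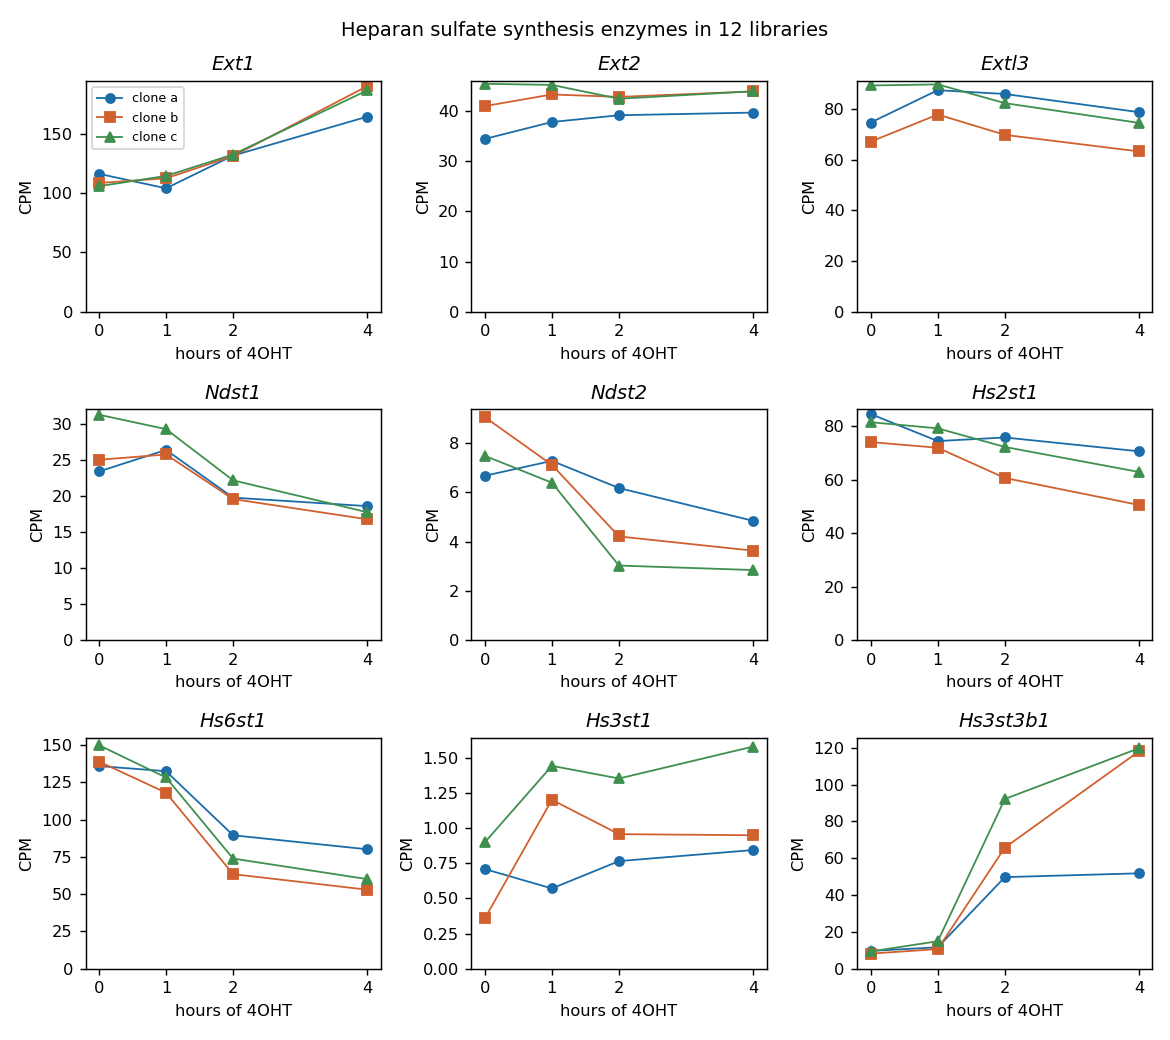
Level of each of the 9 genes (CPM, vertical axis from 0, a scale per panel) against hours of 4OHT, with 1 line per clone. Hs3st3b1 goes from 8.24 to 9.72 CPM untreated to 51.8 to 120 CPM at 4 h, Ext1 rises in every clone, Hs6st1, Hs2st1, Ndst1 and Ndst2 fall in every clone, and Ext2 and Extl3 stay near their untreated range.

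Hs3st3b1 encodes a 3-O-sulfotransferase of the type that makes the site bound by the herpes simplex glycoprotein D (ENSMUSG00000070407, chr11:63885792-63922290, minus strand; positions here and below are from GENCODE M21, GRCm38). Its level was 9.72, 8.24 and 9.41 CPM before treatment (clones a, b and c in turn) and 11.7, 10.7 and 15.0 CPM at 1 h. It was 49.8, 65.8 and 92.2 CPM at 2 h and 51.8, 118 and 120 CPM at 4 h. All 6 libraries of 2 and 4 h were above all 6 libraries of 0 and 1 h. The log2 change was 0.45 ± 0.31 at 1 h, 2.92 ± 0.32 at 2 h (7.58-fold) and 3.40 ± 0.32 at 4 h (10.6-fold). Between 1 and 2 h it was 2.48 ± 0.31, and between 2 and 4 h 0.48 ± 0.29. Hs3st3b1 alone of the members was called in the comparison of 2 with 1 h, where 0.0564% of all genes were called higher. With the replicate block 4 members were called there, Hs3st3b1 and Ext1 higher and Hs6st1 and Ndst1 lower, beside 7.13% of all genes higher and 5.46% lower. Clones differed at 4 h: the change was 2.41 in clone a, 3.83 in clone b and 3.66 in clone c, and clone a was near its 2 h level while clones b and c were above theirs. Without clone a the change at 4 h was 3.75. Without clone c the 2 h change was 2.69 and no longer called, and at 4 h the gene was called under all 21 alternatives.

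Hs3st1, which encodes the 3-O-sulfotransferase that makes the antithrombin-binding site (chr5:39613935-39755475, minus strand), was close to the limit of detection. Its level was 0.71, 0.36 and 0.90 CPM untreated, 0.57, 1.20 and 1.44 CPM at 1 h, 0.77, 0.96 and 1.35 CPM at 2 h and 0.84, 0.95 and 1.58 CPM at 4 h, from 9 to 40 counts per library. The treated and untreated libraries overlapped at each time. It changed by 0.70 ± 0.42, 0.63 ± 0.42 and 0.75 ± 0.42 at 1, 2 and 4 h. With the replicate block the changes were 0.68 ± 0.29, 0.61 ± 0.29 and 0.73 ± 0.29. Hs3st1 was not called at these times in either fit. By clone the change was −0.28, 1.56 and 0.64 at 1 h and 0.23, 1.25 and 0.77 at 4 h in clones a, b and c.

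Hs3st3a1, a close paralog of Hs3st3b1, lies 513 kb away on the same chromosome and is not among the 9. The transcripts of the pair share an identical coding run of 401 bases (1070 to 1470 in the Hs3st3b1 transcript, 1408 to 1808 in that of Hs3st3a1), and 8.56% of the 50-base words of Hs3st3b1 exons occur in Hs3st3a1. The first 120 bases of that run are shown because reads within it fit both genes equally.

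Hs3st3b1 and Hs3st3a1, shared coding run: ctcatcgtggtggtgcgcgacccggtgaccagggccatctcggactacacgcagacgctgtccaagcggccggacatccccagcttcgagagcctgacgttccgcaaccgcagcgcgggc

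Counts given to Hs3st3a1 were 2, 6 and 3 before treatment in clones a, b and c, and 9, 288 and 59 at 4 h. They were 0.635%, 2.90% and 1.10% of the Hs3st3b1 counts untreated and 0.667%, 8.27% and 1.95% at 4 h. The ratio was thus higher at 4 h in clones b and c and near its untreated value in clone a. With 2, 6 and 3 counts the untreated ratios are imprecise. The log2 change of Hs3st3a1 at 4 h was 4.98 ± 1.30 (edgeR adjusted p = 0.0134). The call was lost under 5 of 20 alternatives: without clone b the change was 3.96 (edgeR adjusted p = 0.052), without clone c 5.12 (adjusted p = 0.136), without clone a's untreated library 4.60 (adjusted p = 0.0558) and without clone b's 4 h library 3.33 (adjusted p = 0.0686) among the leave-outs, and in limma-voom. How reads from the shared run were assigned is not given in the sources used here, so the count of Hs3st3a1 is uncertain, and 32.9% of its exon length overlaps an antisense gene. Hs3st4, a further 3-O-sulfotransferase, was at 1.42, 1.63 and 1.04 CPM untreated and 3.15, 3.90 and 3.28 CPM at 4 h, with no overlap. The rise of 1.34 ± 0.20 in log2 units had an edgeR adjusted p of 8.0e-04 and was called under all 21 alternatives.

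Summed per kb of exon, the scale on which genes can be compared, the 7 measured 3-O-sulfotransferases were at 3.04 ± 0.0924 CPM per kb untreated (SD, n = 3), 3.91 ± 0.490 at 1 h, 16.0 ± 4.36 at 2 h and 22.9 ± 8.90 at 4 h. Hs3st3b1 made up 61.1% of the sum untreated and 64.7%, 87.7% and 85.3% at 1, 2 and 4 h. In the 6-O-sulfotransferase family the sum went the other way, from 27.4 ± 1.22 CPM per kb untreated to 13.3 ± 2.69 at 4 h. The untreated ratio of these family sums was thus in favour of the 6-O enzymes in every library, and at 4 h the 3-O sum was the larger in clones b and c, as the stacked bars show.

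**Figure D2:**
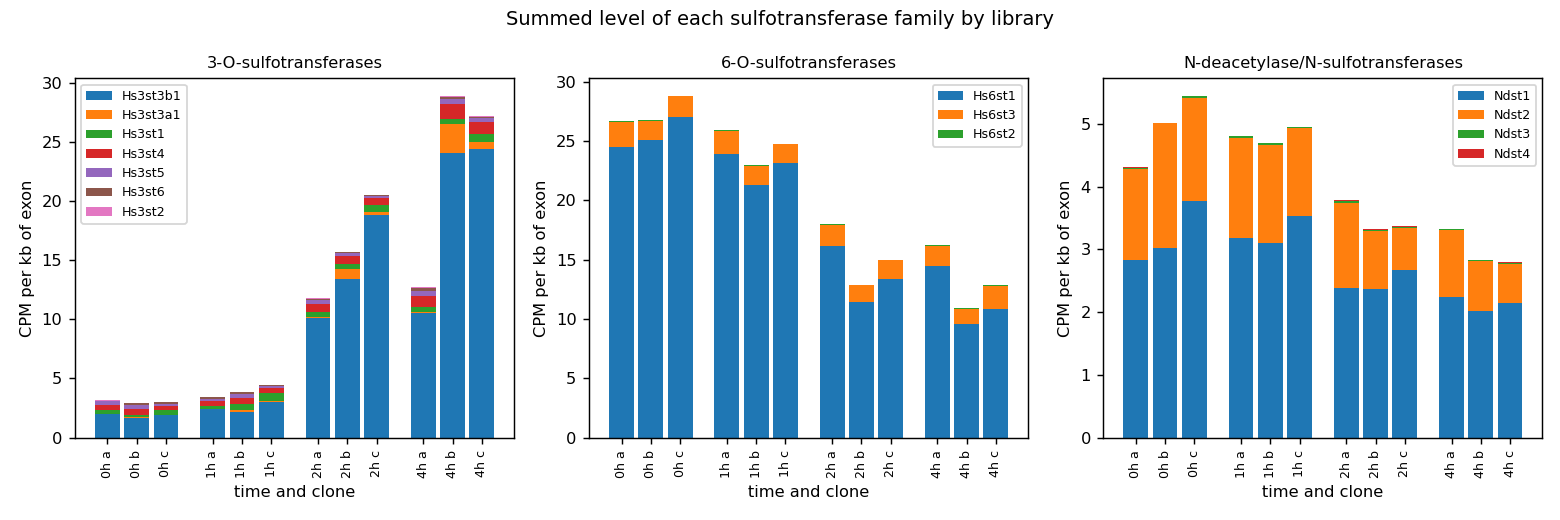
Stacked level per kb of exon (CPM per kb, vertical axis from 0, a scale per panel) of each gene of 3 sulfotransferase families in the 12 libraries, ordered by time and clone. The 3-O sum is 2.96 to 3.14 untreated and 12.7 to 28.9 at 4 h and is mostly Hs3st3b1, while the 6-O sum goes from 26.7 to 28.8 down to 10.9 to 16.3 and the NDST sum from 4.31 to 5.45 down to 2.80 to 3.33.

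Hs6st1 encodes the main 6-O-sulfotransferase of these cells, with 93.1% of the family's level per kb untreated and 86.9% at 4 h (chr1:36068400-36106446, plus strand). It was at 136, 139 and 150 CPM before treatment (clones a, b and c in turn) and 132, 118 and 128 CPM at 1 h. It was at 89.5, 63.4 and 73.8 CPM at 2 h and 80.1, 53.0 and 60.1 CPM at 4 h. Every treated library was below every untreated one, at 1 h by a narrow margin. The log2 change was −0.17 ± 0.15, −0.91 ± 0.15 and −1.14 ± 0.15 at 1, 2 and 4 h, and clone a again changed less at 4 h (−0.76) than clones b (−1.39) and c (−1.32). Without clone b the 2 h change was −0.81 and without clone c −0.85, neither of which was called, and the 4 h call held under all 21 alternatives. Exons of Hs6st1 overlap the opposite-strand gene Gm37335 over 8.07% of their length, and the strand setting of the counting is not given in the sources used here. Of the 50-base words of Hs6st1, 6.37% also occur, on either strand, in transcripts of Gm37335 or Lman2l.

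Hs2st1, the gene for the only 2-O-sulfotransferase of heparan sulfate (chr3:144429706-144570181, minus strand), moved less. It was at 84.5, 74.0 and 81.4 CPM untreated, 74.4, 71.9 and 79.1 CPM at 1 h, 75.7, 60.6 and 72.2 CPM at 2 h and 70.5, 50.5 and 62.8 CPM at 4 h. The groups overlapped at 1 and 2 h, and at 4 h the highest treated library, clone a, lay below the lowest untreated one, clone b. Its changes on the log2 scale were −0.09 ± 0.12, −0.20 ± 0.12 and −0.38 ± 0.12. The 4 h call was lost under 7 of 21 alternatives, among them leaving out clone b (−0.31), clone c (−0.39), clone a's (−0.34) or clone c's (−0.37) untreated library, and clone b's (−0.26) or clone c's 4 h library (−0.40).

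NDST enzymes set where later sulfation can occur, and both expressed members of this family were lower. Ndst1 was at 23.4, 25.0 and 31.2 CPM before treatment (clones a, b and c in turn) and 26.4, 25.7 and 29.3 CPM at 1 h. It was at 19.8, 19.6 and 22.2 CPM at 2 h and 18.6, 16.8 and 17.7 CPM at 4 h. The 1 h group overlapped with the untreated group, and the 2 and 4 h groups lay below it. The log2 change was 0.03 ± 0.12, −0.37 ± 0.12 and −0.58 ± 0.12. The 2 h call of Ndst1 was lost under 16 of 21 alternatives (over all 21 the change ran from −0.46 to −0.24), among them leaving out any 1 clone or any 1 of 9 libraries (clones b and c untreated, all at 1 and 2 h, and clone c at 4 h), and the 4 h call only without clone c (−0.45).

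Ndst2 (chr14:20723730-20734562, minus strand) was at 6.66, 9.04 and 7.47 CPM untreated, 7.27, 7.11 and 6.38 CPM at 1 h, 6.17, 4.21 and 3.03 CPM at 2 h and 4.84, 3.63 and 2.85 CPM at 4 h. The groups did not overlap at 2 or 4 h. On the log2 scale the changes were −0.16 ± 0.25, −0.79 ± 0.25 and −1.03 ± 0.26. Clone a was at −0.46 at 4 h, clone b at −1.30 and clone c at −1.37, and the call was lost without clone b (−0.88) or clone c (−0.89). The family sum, in which Ndst1 held 64.9% untreated, was 4.93 ± 0.575 CPM per kb untreated and 2.99 ± 0.297 at 4 h (SD, n = 3).

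Among the 3 chain-building genes, Ext1, which encodes a subunit of the polymerase (chr15:53064038-53346159, minus strand), was the one called. It was at 116, 108 and 106 CPM untreated, 104, 112 and 114 CPM at 1 h, 131, 131 and 132 CPM at 2 h and 164, 190 and 186 CPM at 4 h. The 1 h group overlapped with the untreated group, the 2 h group lay above it and the 4 h group above the 2 h group. The log2 change was 0.00 ± 0.07, 0.26 ± 0.07 and 0.71 ± 0.07. Between 2 and 4 h it was 0.45 ± 0.07, and Ext1 alone of the members was called there, where 3.27% of all genes were called higher. The 2 h call was lost under 8 of 21 alternatives (over all 21 the change ran from 0.23 to 0.30), among them leaving out clone b (0.25), clone c (0.23), the untreated or 2 h library from b or c, or clone c's 4 h library, and the 4 h call under none.

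Ext2, the partner subunit (chr2:93661028-93822568, minus strand), was at 34.4, 40.9 and 45.4 CPM untreated, 37.8, 43.2 and 45.1 CPM at 1 h, 39.1, 42.8 and 42.4 CPM at 2 h and 39.6, 43.8 and 43.9 CPM at 4 h. Its log2 change was 0.06 ± 0.11, 0.04 ± 0.11 and 0.08 ± 0.11, and treated and untreated libraries overlapped at each time. Extl3, the chain starter (chr14:65052060-65149855, minus strand), was at 74.7, 67.2 and 89.3 CPM untreated, 87.5, 77.9 and 89.8 CPM at 1 h, 86.0, 69.8 and 82.4 CPM at 2 h and 78.8, 63.3 and 74.6 CPM at 4 h. Its log2 change was 0.14 ± 0.12, 0.04 ± 0.12 and −0.09 ± 0.12, with overlap at each time. The polymerase subunits therefore had unlike values, 1 higher and 1 within its untreated spread.

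**Figure D3:**
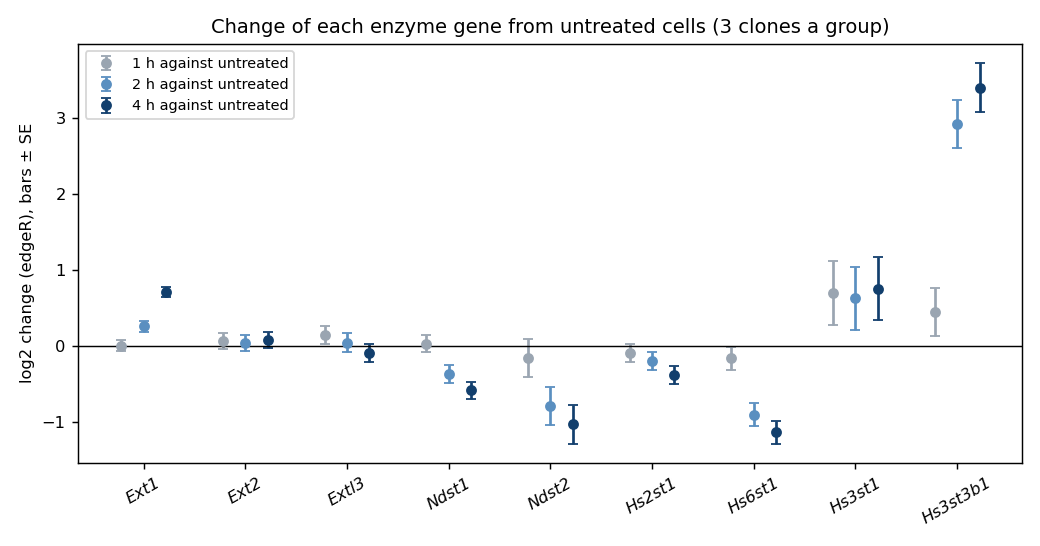
Log2 change of each of the 9 genes from untreated cells (vertical axis, edgeR) at 1, 2 and 4 h, points with ± SE bars from the fit of 12 libraries with 3 clones a group. Hs3st3b1 is at 2.92 and 3.40 at 2 and 4 h and Hs6st1 at −0.91 and −1.14, while all 9 are within 0.70 of 0 at 1 h.

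Per kb of exon the order of the untreated levels was Hs6st1 (25.5 CPM per kb), Ext1 (13.6), Extl3 (12.7), Hs2st1 (9.74), Ext2 (5.49), Ndst1 (3.21), Hs3st3b1 (1.86), Ndst2 (1.70) and Hs3st1 (0.294). Of the neighbours in this order, the library ranges of Ext1 and Extl3 overlapped (13.1 to 14.4 and 11.1 to 14.7), as did those of Hs3st3b1 and Ndst2 (1.68 to 1.98 and 1.47 to 1.99). At 4 h the order was Ext1 (22.3), Hs3st3b1 (19.7), Extl3 (11.9), Hs6st1 (11.6), Hs2st1 (7.47), Ext2 (5.79), Ndst1 (2.14), Ndst2 (0.830) and Hs3st1 (0.505). Hs3st3b1 had moved from the seventh place to the second, with a range of 10.6 to 24.4 CPM per kb that overlapped those of Ext1, Extl3 and Hs6st1. Extl3 and Hs6st1 also overlapped each other at 4 h (10.4 to 13.0 and 9.56 to 14.4), as did Ndst2 and Hs3st1 (0.626 to 1.06 and 0.379 to 0.709).

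As a description over the 12 libraries, which share clones and times, the log2 CPM of Hs3st3b1 and Hs6st1 ran opposite to each other with a Pearson r of −0.97. Hs3st3b1 had r = 0.87 with Ext1 and −0.93 with Ndst2. The tested genes most like Hs3st3b1 by this measure were Lsg1, Slc26a2 and Ptpn12, each at r = 0.986. Slc26a2, a plasma membrane transporter that brings sulfate into the cell, was at a mean of 48.2 CPM untreated and 389 CPM at 4 h, a log2 change of 0.18 at 1 h, 2.23 at 2 h and 3.01 ± 0.37 at 4 h. Ptpn12, a protein tyrosine phosphatase gene, changed by 1.59 ± 0.18 at 4 h and Lsg1 by 0.49 ± 0.07. The genes most like Hs6st1 included Ttl, the tubulin tyrosine ligase (0.991), and Rab11fip1, an effector of a Rab GTPase (0.989), and those most like Ndst2 were Tex26 (0.949), Wdr86 (0.948) and Fam107a (0.947).

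The rest of the pathway was listed by function as 49 genes, of which 44 could be tested. At 1 h edgeR called 0 of the 44, with 4 at an unadjusted p under 0.05 and 0 by DESeq2 or limma-voom, and with clone as a replicate block 2 were called, both higher (Hspg2 and Col18a1). At 2 h 2 rose and 2 fell, and with the replicate block 5 rose and 12 fell. At 4 h 5 rose and 7 fell, and with the replicate block 9 rose and 11 fell. The shares of all genes called stand above. The list's median log2 change was −0.04, −0.20 and −0.12, beside −0.02 for all genes at each time.

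In the linker and precursor group, 12 of 12 genes were tested, and 1 rose and 3 fell at 4 h. Of all genes, 18.0% were called higher and 15.1% lower at that time. Pxylp1, a phosphatase that removes the phosphate from the linker xylose, went from 3.67, 3.42 and 4.67 CPM before treatment in clones a, b and c to 2.30, 1.02 and 1.26 CPM at 4 h. Its groups did not overlap, and its log2 change was −1.36 ± 0.32 (edgeR adjusted p = 0.00779). Without clone c the change was −1.10 (adjusted p = 0.178). Fam20b, the kinase that adds that phosphate, rose at 2 h by 0.41 ± 0.09 (edgeR adjusted p = 0.0192) and was at 0.15 ± 0.09 at 4 h (adjusted p = 0.232). Its 2 h call was lost without clone b (0.36, adjusted p = 0.173) or clone c (0.39, adjusted p = 0.258), without the untreated (0.35) or 2 h library of clone b (0.41), and without clone c's 2 h library (0.36).

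Papss1, which makes the sulfate donor PAPS, had a log2 change of −0.48 ± 0.14 at 4 h (edgeR adjusted p = 0.0200). Ugdh, which makes UDP-glucuronic acid, fell by 0.38 ± 0.10 (edgeR adjusted p = 0.0173). Both calls were lost without clone b (−0.33 for each gene) or clone c (−0.42 and −0.38), and without the untreated library from b or c. That of Papss1 was also lost without clone b's (−0.36) or clone c's 4 h library (−0.44). Slc35b3, a transporter of PAPS into the Golgi, was the gene that rose (0.36 ± 0.13, adjusted p = 0.048), and B3galt6, a linker galactosyltransferase, was lower at 2 h (−0.38 ± 0.11, adjusted p = 0.0448); these 2 were outside the naming rule and are given to complete the count.

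Of 12 other chain enzymes 8 were tested. At 4 h 2 were called higher (Hs3st3a1 and Hs3st4) and 0 lower, beside 18.0% of all genes higher and 15.1% lower. At 2 h 0 were called, and with the replicate block Hs3st3a1 and Hs3st4 were called higher and Extl1 and Extl2 lower. Ndst3, Ndst4, Hs3st2 and Hs3st6 had too few counts. Sulf1 and Sulf2, which remove 6-O-sulfate outside the cell, and Hpse and Hpse2 of the heparanase family gave 0 calls at 1, 2 and 4 h by edgeR, DESeq2 and limma-voom. At an unadjusted p under 0.05 there were 0, 1 and 0 of these 4 genes, and with the replicate block Sulf1 was called lower at 2 h.

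Core proteins carry the chains. Of 13 listed, 12 were tested, and 2 rose and 1 fell at 4 h, beside 18.0% of all genes higher and 15.1% lower. With the replicate block 4 were called higher (Sdc4, Col18a1, Gpc4 and Hspg2) and 3 lower (Gpc3, Gpc5 and Gpc6). The shares of all genes were 26.2% and 25.7% in that fit. Sdc4, the transmembrane proteoglycan syndecan-4, was at 72.4, 81.9 and 99.8 CPM before treatment in clones a, b and c, 132, 201 and 210 CPM at 2 h and 191, 370 and 347 CPM at 4 h, with no overlap at either time. It rose by 1.10 ± 0.24 at 2 h (edgeR adjusted p = 0.0176) and 1.84 ± 0.25 at 4 h (adjusted p = 4.84e-04). The 4 h call held under all 21 alternatives, and the 2 h call was lost without clone b (0.99, adjusted p = 0.154) or clone c (1.11, adjusted p = 0.258) and without clone a's or clone b's untreated library or clone b's or clone c's 2 h library, with adjusted p from 0.0601 to 0.0779. Gpc6, a glypican anchored to the membrane by lipid, went from 13.3, 11.1 and 11.1 CPM to 7.72, 5.36 and 4.62 CPM at 4 h and fell by 1.01 ± 0.21 (edgeR adjusted p = 0.00448; without clone c −0.90, adjusted p = 0.0788). Col18a1, a basement membrane collagen with heparan sulfate chains, rose by 0.51 ± 0.14 (edgeR adjusted p = 0.0184). Its call was lost without clone b (0.52, adjusted p = 0.11) or clone c (0.62, adjusted p = 0.0774), and without the untreated library from a or b or clone a's 4 h library (0.38, adjusted p = 0.0537).

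The 8 lysosomal enzymes that take the chains apart had a median log2 change of −0.34, −0.72 and −0.62 at 1, 2 and 4 h, beside −0.02 for all genes, with 7 of 8 below 0 at each time. At 4 h 3 fell and 0 rose, beside 15.1% of all genes lower and 18.0% higher. With the replicate block 5 were called lower (Idua and Arsg besides), beside 25.7% of all genes. Idua, Sgsh, Naglu and Arsg were at low levels, with untreated means of 2.09, 1.17, 0.706 and 1.91 CPM. Hgsnat, an acetyltransferase of this route, went from 17.3, 11.5 and 15.3 CPM to 8.45, 3.12 and 5.34 CPM (−1.39 ± 0.35, edgeR adjusted p = 0.0116; without clone c −1.32, adjusted p = 0.168). Sgsh, a sulfamidase, fell by 1.45 ± 0.39 at about 1 CPM (edgeR adjusted p = 0.0158), a call lost without clone b (−0.98, adjusted p = 0.0898) or clone c (−1.60, adjusted p = 0.117), and 21.6% of its exon length overlaps Card14 on the opposite strand. Gusb, the beta-glucuronidase, fell by 0.49 ± 0.13 (edgeR adjusted p = 0.0151), a call lost under 6 of 21 alternatives, among them leaving out clone b (−0.33) or clone c (−0.49), clone b's untreated library (−0.45), and clone b's (−0.37) or clone c's 4 h library (−0.47). Arsg, the sulfatase that removes 3-O-sulfate, was called lower at 2 h (−0.93 ± 0.27, edgeR adjusted p = 0.0426), and this call was lost under 13 of 21 alternatives, with changes from −1.15 to −0.64, among them leaving out any 1 clone, clones a or b untreated, b or c at 1 h, any 2 h library, and c at 4 h.

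Chondroitin sulfate is built on the same linker, and 14 of its 16 listed enzymes were tested. At 4 h 1 was called higher and 3 lower, beside 18.0% of all genes higher and 15.1% lower. With the replicate block 3 were called higher and 6 lower, beside 26.2% and 25.7% of all genes. The median log2 change was −0.08, beside −0.02 for all genes. Chpf, a chondroitin polymerizing factor, went from 9.59, 14.3 and 19.2 CPM to 32.0, 30.3 and 39.0 CPM and rose by 1.24 ± 0.24 (edgeR adjusted p = 0.00323), a call kept under all 21 alternatives. The sulfotransferase gene Chst3 fell by 1.28 ± 0.28 at 2 h (edgeR adjusted p = 0.0166), a call lost without clone c or without clone b's or clone c's 2 h library, and by 0.80 ± 0.28 at 4 h (adjusted p = 0.0446), a call lost under 13 of 21 alternatives, among them leaving out any 1 clone, any untreated library, or clones a or c at 1 h, c at 2 h, and b or c at 4 h, with changes from −0.98 to −0.55. Dse, an epimerase that makes dermatan sulfate, fell by 0.58 ± 0.16 at 4 h (edgeR adjusted p = 0.0170), and without clone c the change was −0.57 (adjusted p = 0.188). That call was also lost without clone a's untreated library (−0.49) and without clone b's (−0.46) or clone c's 4 h library (−0.57). Chst11, a 4-O-sulfotransferase, fell by 1.14 ± 0.33 at 4 h at 0.441 to 2.62 CPM (edgeR adjusted p = 0.0208), a call lost without any 1 of clones a (−1.19), b (−0.80) and c (−1.49) or without clone a's untreated library (−1.04).

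**Figure D4:**
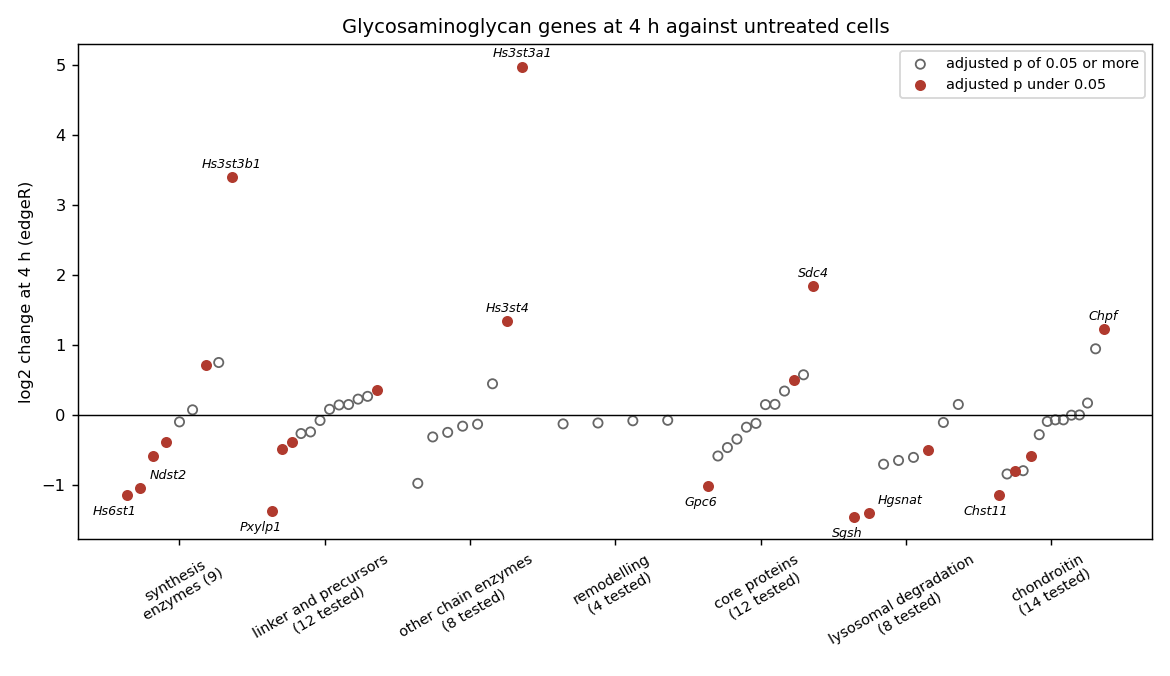
Log2 change at 4 h against untreated cells (vertical axis, edgeR) of the 9 synthesis enzymes and of the tested genes in 6 lists of related function, 1 point per gene, filled where the adjusted p is under 0.05. Filled points lie on both sides of 0 in the synthesis enzymes and in 3 of the 6 lists (linker and precursors, core proteins, chondroitin), all below 0 in the lysosomal list and above it in the other chain enzymes (Hs3st3a1 and Hs3st4), and the remodelling list has 0.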

How the data were processed

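Total RNA depleted of ribosomal RNA was sequenced from 12 cultures, and the authors deposited a table of unnormalised read counts, 1 row per symbol. The submitters' processing notes name STAR, featureCounts, DESeq and the mm10 build, without versions. Neither the strand setting nor the handling of multiply mapped reads is stated in the sources used here. The titles and design give times of 0, 1, 2 and 4 h, whereas the samples' treatment protocol lists only 0 and 2 h.

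Genes were filtered with filterByExpr (minimum count 10, minimum total 15), keeping 14185 and leaving out 11712. Counts were scaled by TMM and fitted with the quasi-likelihood model of edgeR 4.0.16 (R 4.3.3), 1 term per group, with a biological coefficient of variation of 0.163 on 8 residual degrees of freedom, with 2-sided tests and Benjamini-Hochberg adjustment over all genes at 0.05. SE was taken as |log2 change| over √F, from the model's F statistic. Code was tested on simulated data. Alternatives used DESeq2 1.42.0, limma-voom (limma 3.58.1), other size factors, no filter, 2 groups only, a replicate block, and leave-outs.

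Libraries with the same clone letter come from the same clone, so the letter pairs them: their deviations from group means correlated at 0.184 to 0.684 in 18 of 18 pairs, and pairs of different clones at −0.568 to −0.024. Deviations within a group cancel by construction, so the negative values between clones follow from the positive values within clones and are not a separate observation. The blocked fit had a coefficient of variation of 0.0924. Within groups, libraries differed beyond sampling noise, with a chi-square of 18.5 to 103 per degree of freedom. Clones are separate lines, and libraries of 1 clone at different times are not independent.

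Members and lists were chosen with earlier results of these data known. All 9 members are named. Of other lists, up to 4 called genes by smallest adjusted p are named, and for members that changed by at least 1 on the log2 scale the 3 genes with the highest correlation of log2 CPM (prior count 2), without Gm and Rik symbols. Of these, 1 gene is not reported here, nor is 1 call made with the replicate block among the lysosomal enzymes.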

Additional observations from a re-analysis of the deposited data

How the results depend on the processing

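Over 21 alternatives, 5 of 567 member values moved by more than the spread between clones, the SD of the 3 clone changes. That SD was 0.922 for Hs3st1 at 1 h and 0.777 for Hs3st3b1 at 4 h. Leaving out 1 clone could hardly shift a change by more than this SD, so the count does not measure how firm the values are. Of the member values called in the main fit, 0 reversed in sign. Sign was not compared for uncalled values, such as Ext1 at 1 h (0.00164, and −0.000349 with the replicate block). Of 356 values of the other named genes, 63 lost their call and 0 reversed. Called members at 2 h were 4, against 2 in the fit of the 2 groups only and 0 to 5 with a library or clone left out, the 0 being without clone c and 1 without clone b. At 4 h they were 6, and 3 to 6 in the leave-outs, the 3 being without clone c. Over all genes calls fell too: at 2 h from 1356 higher and 942 lower to 822 and 677 in the fit of the 2 groups only, 72 and 25 without clone b and 1 and 0 without clone c, and at 4 h from 2551 and 2140 to 648 and 271 without clone c. With the replicate block, called members between 1 and 2 h were 4 against 1.

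Other heparan sulfate genes called with the replicate block were 2, 17 and 20 at 1, 2 and 4 h, against 0, 4 and 12. At 2 h DESeq2 gave 7 (1924 higher and 1279 lower over all genes), no filter gave 2 (1312 and 710) and leave-outs 0 to 8, with 0 without clone b, clone c, clone b's untreated library, or clone b's or clone c's 2 h library. At 4 h the fit of the 2 groups only gave 7 and leave-outs 2 to 13, with 2 without clone c, 5 without clone b and 7 without clone b's untreated library. Chondroitin genes called at 4 h were 4, against 9 with the replicate block, 2 with the 2 groups only and 1 to 5 in the leave-outs, with 1 without clone c or clone a's untreated library. Leaving out a clone also leaves fewer libraries, and otherwise the cause was not tested. Counts were low for Hs3st1 and Hs3st3a1, at 9 to 40 and 1 to 288 per library, and the SE of the 4 h change of Hs3st3a1 was 1.30, and 0.36 with the replicate block.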

Other observations

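The surroundings of Hs3st3b1 were looked at after its values had been seen. Of 24 annotated genes within 1 Mb of it, 4 had enough counts to be tested. Cox10, a gene for heme A synthesis in mitochondria 40.3 kb away, was at a mean of 38.2 CPM untreated and 39.9 CPM at 4 h, a log2 change of 0.07 ± 0.07 (edgeR adjusted p = 0.519). Tvp23b, 969 kb away, was at 34.0 and 36.9 CPM (0.12 ± 0.10, edgeR adjusted p = 0.38). Pmp22, a peripheral myelin protein gene 726 kb away, went from 1.30 to 0.648 CPM (−1.01 ± 0.27, edgeR adjusted p = 0.0142). Hs3st3a1, at 513 kb, was the other of the 4 past the threshold and is described above.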
